A study of Homo sapiens and Mus musculus with 160 samples.

Results

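The time that an RNA spent on chromatin was set against the time it then needed to leave the nucleus, gene by gene, in human K562 cells, an erythroleukaemia line with fetal and embryonic globin expression. A gene was included when the deposited tables gave both its chromatin half-life and its nuclear export half-life in each of 2 replicate tables, and when every 95% credible interval (the range that holds the fitted value with that probability) spanned at most 4-fold from its lower to its upper end. This held for 9999 of the 12220 genes with both half-lives in both tables, out of 18165 genes listed. The cells were untreated and unmodified, and were given 4-thiouridine, a uridine analog taken up into new RNA, for 0, 15, 30, 60 or 120 minutes before chromatin, nuclear and other fractions were collected. Each table came from 1 time course, with 5 chromatin and 5 nuclear samples. The same rule was applied to untreated NIH-3T3 cells, fibroblasts of mouse embryo origin, with the same labelling times and 2 tables. Samples with shRNAs were not used here.

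Pre-mRNA is capped, spliced and cleaved while it is still bound to chromatin through the polymerase, and an RNA that is spliced slowly can remain tethered. Once released, the mature mRNA is packaged with export factors such as ALYREF and the NXF1-NXT1 receptor and passes through the nuclear pore. Some transcripts, among them RNAs with retained introns, stay in the nucleus for long periods or are degraded there by the exosome. A long chromatin half-life therefore describes the first step, and a long export half-life describes the second.

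All 12 erythroid markers examined, among them GATA1, KLF1, HBG1 and ALAS2, had whole-cell half-lives in both K562 tables. Of the markers of other cell types reported here, 1 of 4 for T cells (CD3D), 1 of 4 for fibroblasts (COL1A2) and 3 of 4 for epithelia (EPCAM, KRT8, KRT18) had such values, which show that the RNA was measured but not how much of it there was. Values below are posterior modes in minutes, given for replicate 1 and then replicate 2, each replicate being 1 deposited table, and the ratio is always the chromatin half-life over the export half-life, on the log2 scale. Whether the tables came from separate cultures is not stated in the labels, so each p-value measures only the spread between 2 tables, which may be technical. In bulk samples a different mix of cells and a different value per cell cannot be told apart.

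Over the 9999 genes both steps took similar times, but export varied much more from gene to gene. The median chromatin half-life was 46 minutes in replicate 1 and 51 in replicate 2. The median export half-life was 38 and 46 minutes. Over the genes' means of both tables, the central 50% of chromatin half-lives lay between 35 and 70.5 minutes, whereas for export they lay between 22.4 and 81.2 minutes. The SD across genes was 0.80 on the log2 scale for chromatin and 1.52 for export. The ratio followed the export half-life (Spearman's rho = -0.87 across 9999 genes) and hardly the chromatin half-life (rho = -0.04); the ratio contains both, genes are not independent replicates, and these are descriptions. Genes slow at one step tended to be slow at the other, with a rho of 0.47 in replicate 1 and 0.44 in replicate 2 within a table. Taken from different tables, the rho was 0.43 for replicate 1 chromatin with replicate 2 export and 0.53 for the reverse. The tables agreed within a median of 1.15-fold for chromatin and 1.29-fold for export, and the ratio pointed the same way in both for 8421 genes (84.2%).

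By limma, which compared 2 chromatin with 2 export values per gene across all 12220 genes, 2613 of the 9999 genes had the longer half-life on chromatin and 1349 the longer half-life for export, both at a Benjamini-Hochberg adjusted p under 0.05. Among all 12220 genes these shares were 24.8% for chromatin and 11.4% for export. The authors' intervals were apart in both tables, in the same direction, for 2992 genes with chromatin longer and 2414 with export longer, against 26.9% and 19.8% of all genes. Genes called for chromatin had median chromatin half-lives of 50 and 55 minutes against export half-lives of 16 and 15 minutes. Genes called for export had 53 and 60 minutes on chromatin against 130 and 160 minutes for export. The called groups lay far apart in export and close together in chromatin residence. The calls were made on these same values and the ratio followed export, so this separation is not a separate result.

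With the table as a block, the counts were 1859 and 719. Without 1 of the 2 chromatin values of each gene, no gene was called in either direction, while 2215 and 736 genes had an unadjusted p under 0.05 without replicate 1, and 1955 and 1263 without replicate 2. Without the export values of replicate 1 the counts were 1846 and 732, and without those of replicate 2 they were 1619 and 167. Among genes with intervals of at most 2-fold, 377 were called for chromatin and 1278 for export. Short export half-lives often had wider intervals, so this limit removed mostly genes called for chromatin. The authors also deposited a second export estimate, taken from the chromatin and nuclear posteriors, which ranked genes alike (rho of 0.96 in both tables) but was shorter, with medians of 23 and 28 minutes. With it, 1691 genes were called longer on chromatin and 124 longer for export, and the median log2 ratio moved from 0.09 to 0.77. The sizes were less alike than the ranks, with a Pearson's r on the log2 scale of 0.645 in replicate 1 and 0.657 in replicate 2. For the 2613 genes called for chromatin with the first estimate, the second had medians of 2.1 and 1.5 minutes.

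The shortest export times lay below the first labelling time. In both tables, 1080 of the 2613 genes called for chromatin had export half-lives under 15 minutes. For 288 of all 9999 genes, both export values fell between 6.3 and 6.8 minutes, a band where values recur and where genes cannot be ordered; 287 of these were called for chromatin. The chromatin half-life exceeded the half-life in the whole nucleus, which includes chromatin, in both tables for 718 of the 2613 genes called for chromatin (27.5%), for 21 of 6037 uncalled genes and for 0 of 1349 genes called for export. For 16 of the 9999 genes a chromatin mode lay outside its own interval. Without the genes whose chromatin half-life exceeded the nuclear one, an alternative added after the values were seen, 1895 and 1349 genes were called.

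**Figure D1:**
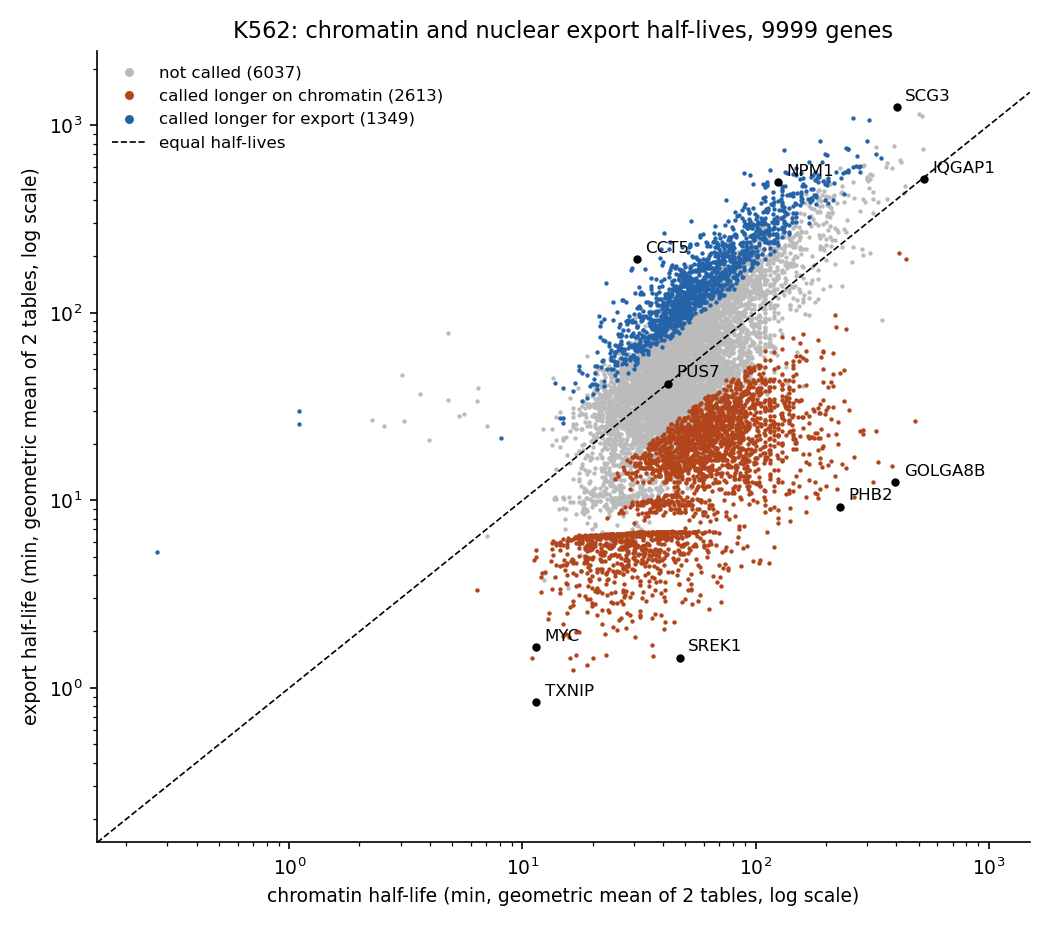
Each point is 1 of 9999 K562 genes, with its chromatin half-life on the x axis and its export half-life on the y axis (minutes, geometric mean of 2 tables, log scales); colours give the limma call and the dashed line marks equal half-lives. The 1349 blue genes and the 2613 orange genes cover much the same range of chromatin half-lives, and the dense orange line just under 10 minutes is the band of recurring export values between 6.3 and 6.8 minutes.

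The genes held longest on chromatin relative to export encode proteins of varied function. Among genes called for chromatin whose intervals were also apart in both tables, the 14 with the largest ratios had chromatin half-lives between 34 and 440 minutes and export half-lives between 0.61 and 18 minutes. Their ratios ran from 21.1-fold to 32.7-fold. SREK1, a splicing regulator with an arginine- and serine-rich domain (chr5:66139971-66183615, plus strand), had chromatin half-lives of 44 and 51 minutes. Its export half-lives were 1.5 and 1.4 minutes, and its log2 ratio was 5.03 (SE 0.21, limma adjusted p = 0.00583). The ranges did not come near each other, but its nuclear half-lives of 34 and 38 minutes were below those on chromatin, and the authors called it degraded in the nucleus.

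GOLGA8B and GOLGA8A, paralogs of the golgin family on chromosome 15, were the slowest on chromatin of these 14. GOLGA8B stood at 360 and 440 minutes on chromatin and at 13 and 12 minutes for export. GOLGA8A stood at 360 and 410 minutes and at 18 and 13 minutes. Near-identical copies exist, so reads may have been split between them and both sets of values are uncertain. PGGHG, an enzyme that trims glucose from collagen hydroxylysine, had 280 and 360 minutes on chromatin and 13 and 12 for export. NBEAL2, needed for platelet alpha granules, had 270 and 260 minutes on chromatin and 10 and 11 for export. Both genes had whole-cell half-lives, 150 and 140 minutes for PGGHG and 180 and 160 for NBEAL2, that were shorter than their chromatin half-lives. The same held for GOLGA8B (310 and 260 minutes in the whole cell) and GOLGA8A (280 and 230). In both replicates, 102 of the 2613 genes called for chromatin had a chromatin half-life above the whole-cell one.

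PHB2, which encodes the inner mitochondrial membrane protein prohibitin 2, had 220 and 240 minutes on chromatin and 8.6 and 10 for export. Its whole-cell half-lives of 410 and 370 minutes were well above the chromatin values, unlike those of PGGHG and NBEAL2. SLC25A37, the mitochondrial iron importer mitoferrin 1 of erythroid cells, had 100 and 130 minutes on chromatin and 5.4 and 4.0 for export. STXBP5, a syntaxin-binding protein, had 64 and 62 minutes on chromatin against 2.7 and 2.6. CENPT, a kinetochore protein that binds centromeric chromatin, had 100 and 110 minutes against 4.8 in both tables. TAF1C, a subunit of the RNA polymerase I selectivity factor, had 98 and 110 minutes against 5.6 and 3.8. Its whole-cell half-lives of 96 and 100 minutes were also below those on chromatin.

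The remaining genes of the 14 were POLR2J3, a copy of an RNA polymerase II subunit gene whose reads may be shared with its near-identical paralogs, and WDR55, NABP1 and ADAT2. For WDR55, a WD-repeat protein, the export half-life was 3.6 minutes in replicate 1 and 0.61 in replicate 2, and its SE was 0.91 (log2 ratio 4.62, limma adjusted p = 0.0270). NABP1, a single-stranded DNA binding protein, had 34 and 38 minutes on chromatin and 1.8 and 1.6 for export. ADAT2, the catalytic subunit of the tRNA adenosine deaminase, had 110 and 130 minutes on chromatin and 4.4 and 7.3 for export. Of the 14 genes, 12 had a chromatin half-life above the nuclear one in both tables and 5 carried the authors' degradation call; the part of either in these ratios was not tested. All 14 were also called with the table as a block (limma adjusted p of 0.0321 to 0.0431).

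In GENCODE 29, 12 of these 14 genes have at least 1 transcript annotated with a retained intron, where 59.2% of all 9962 annotated genes of the set do. Of the 14 genes with the smallest ratios, described below, 9 do. For GOLGA8A, POLR2J3, SLC25A37 and NABP1, no intron of the coding transcript lies inside an exon of such a transcript. Short introns that lie inside an exon of such a transcript are shown for 6 of the genes, since they are the stretches that annotation places either in or out of the mature RNA; no reads over them were examined. They are CENPT intron 15 (chr16:67828391-67828473, minus strand), NBEAL2 intron 46 (chr3:47007156-47007240, plus strand), PGGHG intron 2 (chr11:290601-290677, plus strand), PHB2 intron 5 (chr12:6967780-6967891, minus strand), TAF1C intron 4 (chr16:84183334-84183409, minus strand) and WDR55 intron 2 (chr5:140668335-140668414, plus strand), all on GRCh38 and numbered along the coding transcript. Capitals mark the GT and AG at the splice sites. The introns shown are 76 to 112 bases long and 57.5% to 64.5% GC. A further such intron, of GOLGA8B, with 40 bases and 50% GC, is not shown.
CENPT: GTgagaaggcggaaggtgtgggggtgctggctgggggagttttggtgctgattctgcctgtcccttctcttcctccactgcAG
NBEAL2: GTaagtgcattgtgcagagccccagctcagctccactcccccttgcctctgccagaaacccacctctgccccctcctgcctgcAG
PGGHG: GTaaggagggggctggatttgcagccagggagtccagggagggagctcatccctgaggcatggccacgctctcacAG
PHB2: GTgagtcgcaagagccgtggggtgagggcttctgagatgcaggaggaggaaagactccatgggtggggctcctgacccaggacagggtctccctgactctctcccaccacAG
TAF1C: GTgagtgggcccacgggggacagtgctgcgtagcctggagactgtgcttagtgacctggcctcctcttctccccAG
WDR55: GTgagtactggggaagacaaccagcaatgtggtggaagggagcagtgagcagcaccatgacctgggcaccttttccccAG

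The genes held longest for export relative to chromatin included 5 that encode mitochondrial proteins and 2 that encode ribosomal proteins. The 14 with the smallest ratios, chosen in the same way, had chromatin half-lives between 14 and 160 minutes and export half-lives between 130 and 1200 minutes, a difference of 5.12-fold to 6.57-fold. Their coding transcripts had 2 to 11 exons, and 12 of the 14 had at most 6. None had a chromatin half-life above its nuclear one. None carried the degradation call, but for CCT5, RPS15A and RPS20 no such assessment was given. CCT5, a subunit of the CCT chaperonin that folds actin and tubulin (chr5:10249921-10266412, plus strand), left chromatin with half-lives of 34 and 28 minutes. Its export half-lives were 170 and 220 minutes, and its log2 ratio was -2.65 (SE 0.25, limma adjusted p = 0.00669).

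Of the oxidative phosphorylation genes, COX4I1, a nuclear-encoded subunit of cytochrome c oxidase (chr16:85798633-85807044, plus strand), had 24 and 36 minutes on chromatin and 130 and 230 for export. COX7A2, a smaller subunit of the same enzyme, had 69 and 130 minutes on chromatin and 490 and 610 for export. ATP5PD, a stalk subunit of ATP synthase, had 32 and 35 minutes on chromatin and 140 and 210 for export. COX14, an assembly factor of cytochrome c oxidase, had 50 and 36 minutes against 230 and 210, and TMEM126A, a mitochondrial inner membrane protein, had 72 and 39 against 280 and 340. In each of these 5 genes the lower export value lay above the higher chromatin value.

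The ribosomal protein genes RPS15A and RPS20 showed the same order. RPS15A stood at 20 and 43 minutes on chromatin and 130 and 220 for export, and RPS20 at 31 and 50 against 170 and 280. Both have processed pseudogenes that can take up reads. FABP5, a fatty acid carrier, had 14 and 37 minutes against 130 and 160. PCBD1, a pterin dehydratase, had 34 and 54 against 190 and 300, and CKLF, a chemokine-like factor, had 85 and 93 against 440 and 700. PEMT, which makes phosphatidylcholine in the endoplasmic reticulum, had 160 and 110 minutes on chromatin, but its export half-life was 1200 minutes in replicate 1 and 450 in replicate 2. XAGE1A and GAGE13, X-linked cancer-testis antigen genes with near-identical copies, had export half-lives of 310 and 230 minutes and of 420 and 380 minutes. XAGE1A, with a limma adjusted p of 0.0277, was the only 1 of the 14 not called with the table as a block (limma adjusted p = 0.0526).

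**Figure D2:**
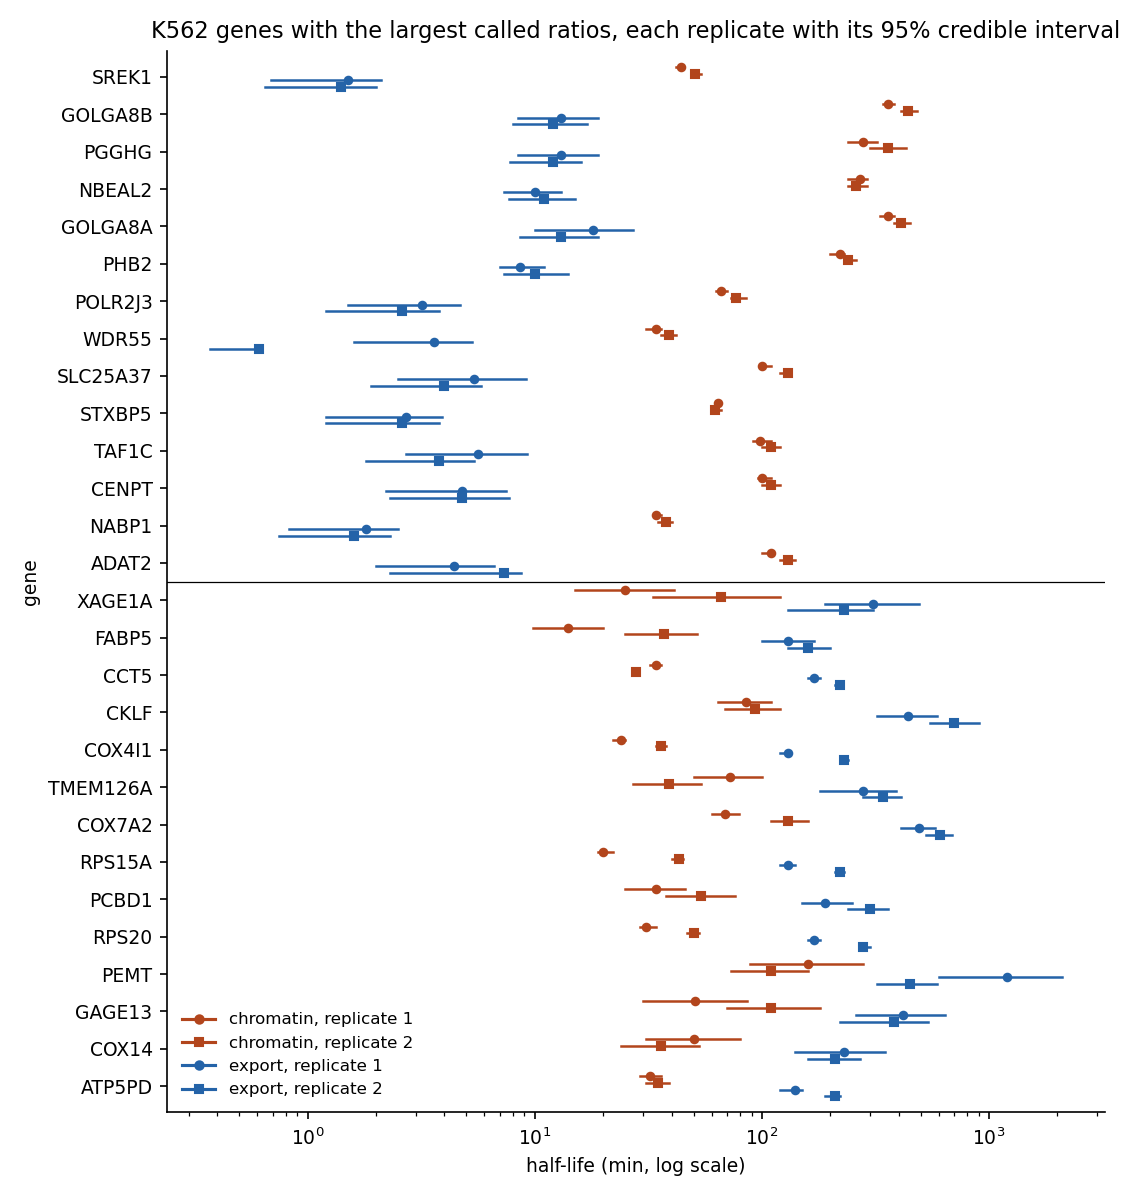
Half-lives in minutes (log scale) of the 14 genes with the largest and the 14 with the smallest called ratios in K562 cells, with circles for replicate 1, squares for replicate 2, orange for chromatin, blue for export and bars for the authors' 95% credible intervals. No orange bar overlaps a blue bar of the same gene and table, and the second WDR55 export value (0.61 minutes) stands far below the first (3.6 minutes).

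Other genes were slow at both steps. The 5 that ranked highest at both encode proteins that are secreted or stored in granules. LYZ, the secreted bacteria-killing enzyme lysozyme, had 340 and 740 minutes on chromatin and 1100 and 1200 for export. PRG2, the eosinophil granule major basic protein, had 310 and 860 minutes on chromatin and 980 and 1300 for export. SCG3, a secretory granule protein, had 300 and 540 minutes against 1200 and 1300, and was the only gene of the 5 called by limma (log2 ratio -1.63, SE 0.35, adjusted p = 0.0326). COL18A1, which encodes a basement membrane collagen, had 390 and 700 minutes against 830 and 670, so its chromatin and export values overlapped between tables. NMU, a secreted neuropeptide precursor, had 320 and 480 minutes against 740 and 820 (limma adjusted p = 0.0587) and carried the authors' call of degradation in the nucleus. All of these exceed the longest labelling time of 120 minutes and rest on the fitted model. The purity of the fractions was not tested.

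The 5 genes that ranked fastest at both steps had export half-lives between 0.77 and 2.7 minutes. MYC, a growth-promoting transcription factor, had 11 and 12 minutes on chromatin and 1.8 and 1.5 for export. TXNIP, an inhibitor of thioredoxin, had 11 and 12 minutes and 0.92 and 0.77. CISH, a feedback inhibitor of cytokine signalling, had 12 and 10 minutes and 1.5 and 1.4. LCMT2, a tRNA-modifying enzyme encoded by a single-exon transcript, had 11 and 15 minutes and 2.7 and 2.0, and FBXO5, an inhibitor of the anaphase-promoting complex, had 14 and 12 minutes and 2.5 in both. All 5 were called longer on chromatin by limma, since export was shorter still. At the other limit, PUS7, a pseudouridine synthase, had 40 and 44 minutes at each of the steps, and THADA had 110 and 120 at each. These, with SHCBP1, MSANTD3 and CDK5RAP1, were the uncalled genes with ratios nearest 0.

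At the edge of the rule, ZNF813 (24 and 22 minutes on chromatin, 6.5 in both tables for export) and ZSCAN23 (63 and 58 minutes against 38 and 39) had widest intervals of 4-fold and were in. BCAT2 (36 and 51 minutes against 16 and 6.8) and MAP3K3 (41 and 40 minutes against 21 and 16) reached 4.03-fold and were out.

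Gene lists were described by counts and medians and not tested as sets. Against the 24.8% and 11.4% called among all 12220 genes and a median log2 ratio of 0.23, the ribosomal, respiratory, proteasomal and chaperone lists lay on the export side. Of 28 small-subunit cytosolic ribosomal protein genes, 19 were called longer for export and 0 longer on chromatin, with a median log2 ratio of -1.52. Of 44 large-subunit genes, 26 were called for export and 0 for chromatin (median -1.44). Their median half-lives were 30 and 38 minutes on chromatin and 76.5 and 110 for export. RPL14 had the lowest ratio of the large-subunit list (29 and 52 minutes against 160 and 240). RPL7L1, a ribosome assembly factor matched by its symbol, had the highest, but with export values of 1.3 and 31 minutes its tables disagreed and it was not called (limma adjusted p = 0.357).

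Of 41 genes of respiratory complexes II to V, 27 were called for export and 0 for chromatin (median -1.48). The longest export half-lives among them were those of COX6C, a cytochrome c oxidase subunit, at 620 and 1100 minutes. Complex I was split, with 18 of 36 genes called for export and 4 for chromatin. NDUFA1, an accessory subunit, had 340 and 200 minutes on chromatin and 1000 and 1200 for export, whereas NDUFV1, the flavin-carrying subunit, had 69 and 73 minutes on chromatin and 14 and 9.4 for export and carried the degradation call. Mitochondrial ribosomal protein genes had ratios nearer 0 than the cytosolic ones, with 25 of 76 called for export, 3 for chromatin and a median of -0.87; with the table as a block 13 were called for export.

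Proteasome subunits were called for export in 28 of 43 genes and for chromatin in 2 (17 and 2 with the block). PSMA6, a core particle subunit, had 77 and 93 minutes on chromatin and 280 and 400 for export, while the assembly chaperone PSMG4, which carried the degradation call, had 22 and 23 minutes on chromatin and 2.2 and 1.7 for export. Chaperones and CCT subunits gave 22 of 36 genes for export and 1, HSPA14, for chromatin. Glycolytic genes gave 9 of 17 for export, led by LDHA, lactate dehydrogenase A (98 and 68 minutes against 330 and 360), and 2 for chromatin, of which PFKL, a phosphofructokinase, had 110 minutes on chromatin in both tables and 23 and 40 for export. Of 56 initiation, elongation and release factor genes matched by symbol, which include EIF2AK kinases and EIF4E-binding proteins, 21 were called for export (8 with the block) and 3 for chromatin.

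Genes of the secretory pathway had long fitted half-lives at both steps, and longer ones for export. Whether endoplasmic reticulum was carried along with the nuclear fractions was not tested. Endoplasmic reticulum genes for translocation, glycosylation and folding had median half-lives of 100 and 140 minutes on chromatin and 300 and 340 for export, with 21 of 45 called for export and 0 for chromatin. SEC11C, a signal peptidase subunit, had 83 and 160 minutes against 390 and 860 (limma adjusted p = 0.0388). CANX, the chaperone calnexin, was slowest of the list at both steps, with 390 and 450 minutes on chromatin and 670 and 610 for export, and was not called (adjusted p = 0.0880). Lysosomal genes had medians of 109 and 130 minutes on chromatin and 220 and 265 for export, with 19 of 34 called for export, 10 with the block and 0 for chromatin. CTSL, the protease cathepsin L, had 170 and 190 minutes against 530 and 600. Cytoplasmic half-lives of both lists were short beside these, with medians of 27 and 14 minutes for the endoplasmic reticulum genes and 38 and 24.5 for the lysosomal ones, where the 9999 genes had 88 and 77.

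Among globins and erythroid products, 9 of 25 genes were called for export and 3 for chromatin (7 and 1 with the block). HBG2, a fetal globin gene whose near-identical neighbour HBG1 can share reads, had 330 minutes on chromatin in both tables and 620 and 800 for export. ALAS2, the first enzyme of haem synthesis in red cell precursors, had 220 and 280 minutes against 630 and 880, and UROS, a later enzyme of the same pathway, was the reverse at 45 and 49 minutes against 13 and 6.8. Of 16 erythroid and haematopoietic transcription factors, 4 were called for chromatin (2 with the block) and 0 for export, a chromatin share of 25% where all genes had 24.8%. RUNX1 stood at 32 minutes on chromatin in both tables and 4.1 and 3.4 for export. GATA1, the master regulator of the lineage, had 45 and 51 minutes against 57 and 86 and was not called.

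Transcription factor and early-response genes lay on the chromatin side. A list of 337 zinc-finger genes was examined, most of which have ZNF symbols and encode C2H2 DNA-binding proteins. Of these, 184 were called longer on chromatin and 0 longer for export, with a median log2 ratio of 1.42. Their median half-lives were 33 and 37 minutes on chromatin and 16 in both tables for export, so they were faster than the 9999 genes at both steps and more so at export. For 58 of the 337 the chromatin half-life exceeded the nuclear one. ZNF451 had the highest ratio, at 46 and 51 minutes against 3.3 and 2.5. ZNF117 stayed longest on chromatin, at 200 and 240 minutes against 14 and 13. Zinc fingers with a BTB domain gave 17 of 32 for chromatin and 0 for export, and immediate early and AU-rich genes, whose mRNAs are known to decay quickly, gave 28 of 41 and 0 with medians of 17 and 18 minutes on chromatin and 5.9 for export in both tables.

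Of the genes for chromatin proteins, 1 list had a chromatin share above that of all genes and the other a share near it. Histone and DNA modifiers were called for chromatin in 38 of 92 genes (41.3%) and for export in 2 (28 and 0 with the block). KAT2A, a histone acetyltransferase, had 160 and 170 minutes on chromatin and 12 and 9.1 for export. Of 46 chromatin remodelling and bromodomain genes, 13 (28.3%) were called for chromatin and 2 for export (8 and 1 with the block), near the 24.8% of all genes. BRD2, which reads acetylated histones, had 20 minutes on chromatin in both tables and 1.4 and 1.5 for export. SMARCC1, a scaffold of the BAF complex, was called for export at 120 minutes in both tables against 290 and 280. Replication-dependent histone genes, which lack introns and poly(A) tails, gave 9 of 49 for export and 0 for chromatin (median -0.70), and many of them are near-identical in sequence.

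RNA-processing genes fell on both sides. SR proteins and splicing regulators gave 29 of 83 genes for chromatin and 11 for export (4 with the block). CCNL2, a cyclin found in splicing speckles, had 66 and 77 minutes on chromatin and 3.9 and 3.1 for export, and HNRNPC, an abundant nuclear RNA-binding protein, had 44 and 53 minutes against 200 and 250. The degradation call was carried by 23 of the 83, whose median log2 ratio was 1.37, against -0.05 for the other 60. The shares called for chromatin were closer, at 9 of the 23 (39.1%) and 20 of the 60 (33.3%). Of the 9704 assessed genes of the set, 3.67% carried the degradation call. Core spliceosome genes gave 27 of 71 for export (11 with the block) and 10 for chromatin, with SNRPB, a core protein of spliceosomal snRNPs, at 72 and 81 minutes against 250 and 380 and LSM8 at 26 and 30 against 2.3 and 1.9. Among ribosome biogenesis factors NPM1, the abundant nucleolar protein, had 120 and 130 minutes against 440 and 560, while NOP56, a snoRNA host gene with the degradation call, had 37 and 44 against 1.7 and 2.5. Nuclear pore and karyopherin genes gave 20 of 54 for export and 7 for chromatin (7 and 3 with the block). Of 26 mRNA export factors, 7 were called for export and 5 for chromatin (2 and 3 with the block), with ERH at 98 and 120 minutes against 260 and 380 and CHTOP at 18 and 22 against 2.8 and 2.9.

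Giant cytolinkers and scaffolds were slow at both steps alike. Their 35 genes had medians of 140 minutes on chromatin in both tables and 120 and 160 for export, with 6 called for chromatin and 0 for export. IQGAP1, an actin-binding scaffold, had 530 minutes on chromatin in both tables and 520 and 510 for export, the longest of the list at both. No gene of the textbook long noncoding RNA list or of the mitochondrially encoded list passed the rule.

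The side of a list, judged against a log2 ratio of 0, depended in part on the export estimate. Over all genes the second estimate called 1986 of 12136 for chromatin and 128 for export. The median log2 ratio of all genes was 0.97 with it, where the first estimate gave 0.23. With the second estimate, the 16 lists with a median above 0 stayed above it, although their calls for chromatin also became fewer. They went from 28 to 6 of 41 immediate early genes, from 184 to 98 of 337 ZNF genes and from 29 to 20 of 83 splicing regulators. The share of immediate early genes called was then no higher than that of all genes. Of the 29 lists below 0, 18 stayed below, among them the ribosomal, respiratory, proteasome, chaperone, endoplasmic reticulum and lysosomal lists, although only 0 to 13 genes of each of these were then called for export. The other 11 had medians above 0 with the second estimate, but below the 0.97 of all genes. These were solute carriers, TMEM genes, RAB GTPases, E2 enzymes, helicases, ribosome biogenesis, mRNA export factors, mitotic genes, DNA replication, the ATF4 program and the RNA polymerase II list.

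**Figure D3:**
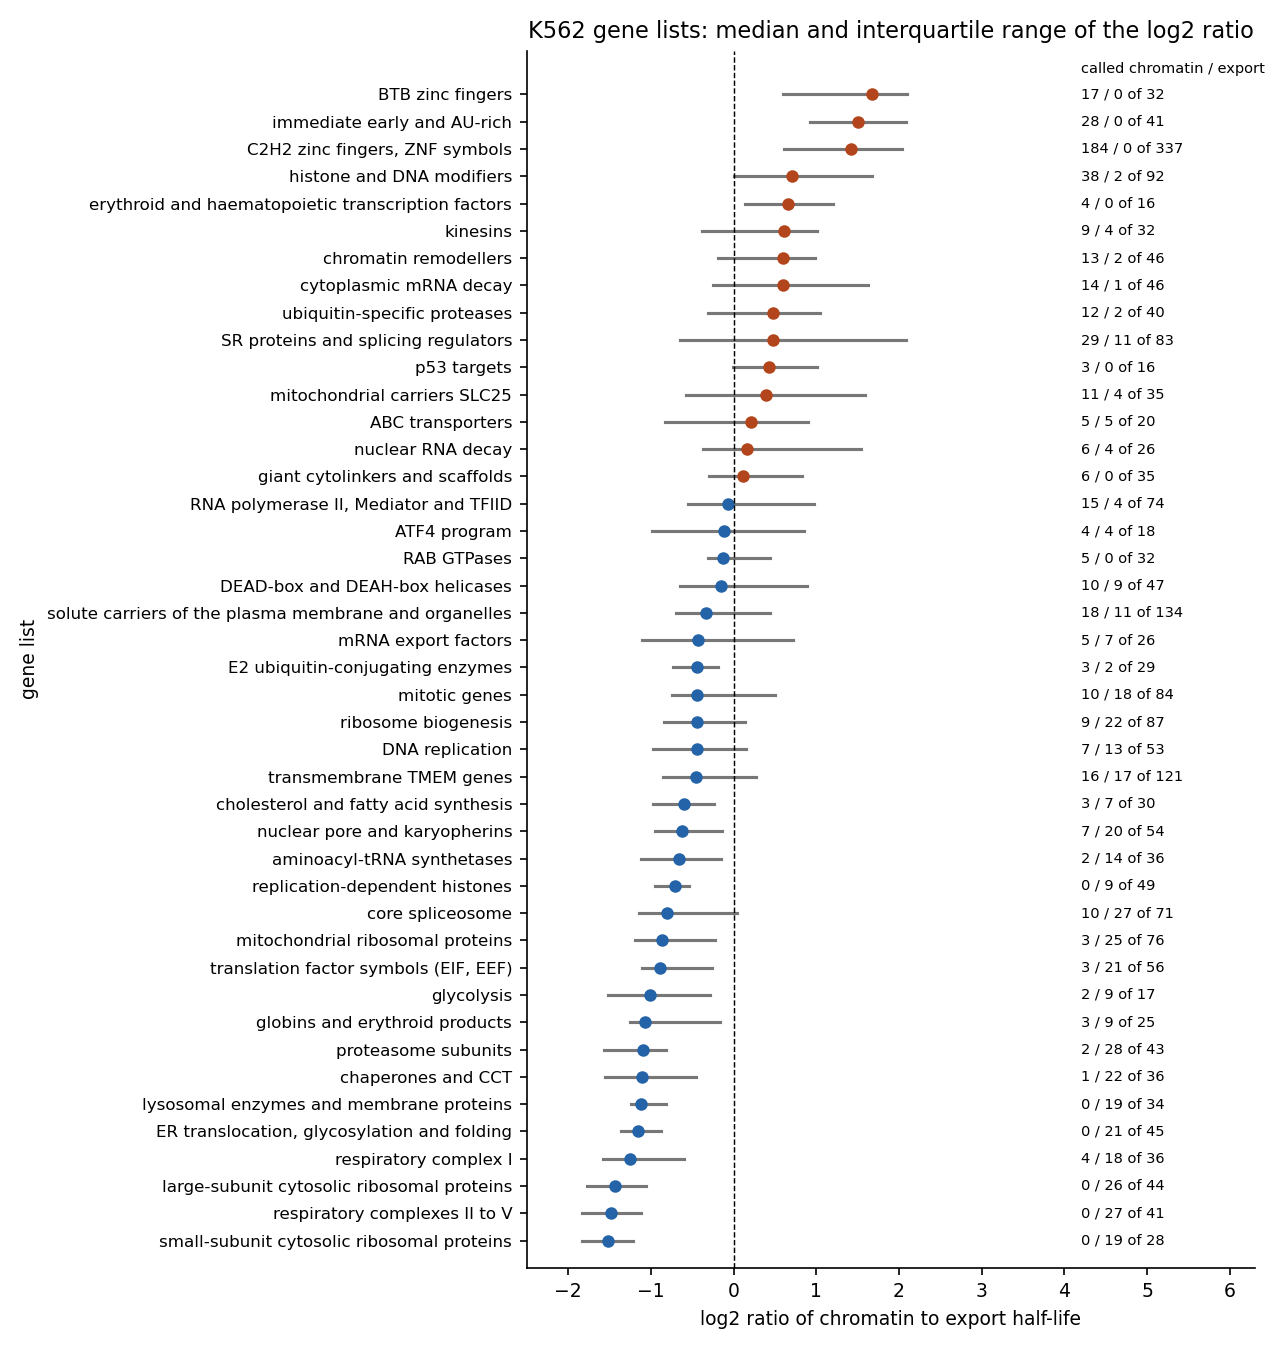
Median (point) and interquartile range (bar) of the log2 ratio of chromatin to export half-life in K562 gene lists with 16 or more genes, with the number called longer on chromatin, the number called longer for export and the list size on the right. Zinc-finger and immediate early genes stand at the top, with no gene called for export, and cytosolic ribosomal proteins and respiratory complexes II to V at the bottom, with no gene called for chromatin.

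Families were also formed from the letters before the first digit of the symbol, which gave 116 families of 10 or more genes. The 6 lowest median log2 ratios were those of RPL (-1.38, 28 of 46 genes called for export), COX (-1.37, 11 of 20), NDUFA (-1.33, 6 of 13), RPS (-1.28, 19 of 36), SF (-0.99, 7 of 10) and PSMD (-0.99, 9 of 14). With the table as a block the SF and PSMD counts were 1 and 3. Shared letters do not make a family of 1 function. RPS6KB2, an S6 kinase that shares the letters but is no ribosomal protein, had 36 and 41 minutes on chromatin and 3.9 and 4.3 for export. It carried the degradation call. COX20 and COX19, assembly factors of cytochrome c oxidase, were called for chromatin. They stood at 24 and 25 minutes against 3.7 and 2.2 and at 15 and 18 against 5.8 and 2.9. COX20 carried the degradation call and COX19 did not.

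The 6 highest medians were those of NBPF (2.07, 9 of 13 genes called for chromatin), STX (1.74, 9 of 13), ZBTB (1.66, 17 of 33), SRSF (1.51, 5 of 11), ZNF (1.42, 175 of 315) and FBXO (1.32, 9 of 22); 0 genes of these families were called for export. NBPF genes are recent near-identical copies, and several share the value of 6.8 minutes for export in both tables, as NBPF14 (47 and 52 minutes on chromatin) and NBPF10 (44 and 46) do. STX16, a syntaxin of the trans-Golgi, had 89 and 98 minutes on chromatin and 14 and 15 for export. SRSF11, an SR-related splicing factor, had 83 and 91 minutes against 4.2 and 4.8, while SRSF3 had 17 and 22 against 29 and 34 and was not called. The degradation call was carried by 6 of the 11 SRSF genes. Their median log2 ratio was 1.73, against -0.19 for the other 5, while 3 of the 6 and 2 of the 5 were called for chromatin. FBXO30, a ubiquitin ligase adaptor, had 25 minutes on chromatin in both tables and 5.1 and 3.1 for export.

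Transcript structure, taken from GENCODE 29 for 9797 genes with a coding transcript, differed between the steps. Chromatin half-lives were longer in genes with more exons (Spearman's rho = 0.39 across genes), while for export rho was 0.07. Single-exon genes (224) had a median chromatin half-life of 36.1 minutes and genes of 20 or more exons (1583) of 67.9 minutes. For export the same groups had 34.1 and 43.6 minutes, and 21.9% against 36.3% were called for chromatin. The single-exon median came from 1 coding transcript per gene, so an intron in another transcript would not be seen. Summed intron length followed chromatin half-life less closely (rho = 0.28).

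Chromatin medians were longer in each bin of greater coding length, whereas export medians were 60.1, 48.5, 37.3 and 35.4 minutes over the first 4 bins and 41.3 in the last. Genes with coding sequences of at most 500 bases (819) had medians of 39.5 minutes on chromatin and 60.1 for export, and 25.8% of them were called for export and 9.52% for chromatin. Genes of more than 4000 coding bases (733) had 68.8 minutes on chromatin and 41.3 for export, with 4.37% and 36.8%. The genes called for export had a median coding length of 1100 bases, the uncalled genes 1395 and the genes called for chromatin 1740. Retained-intron transcripts were annotated for 67.9% of the genes called for chromatin, 55.4% of the uncalled and 59.4% of those called for export. Genes with 6 or more such transcripts (926) were called for chromatin in 41.9% and for export in 10%, against 20.6% and 13.5% of genes with none (4064); how often a gene has been annotated also depends on its expression and exon number.

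The start of the coding sequence was examined because signal peptides and membrane segments use hydrophobic residues, whose codons often have T in the middle position. Among codons 2 to 26, genes with 13 or more such codons (177) had medians of 66.9 minutes on chromatin and 81.6 for export, and genes with 0 to 3 (1907) had 45.4 and 35.2. Export thus differed by over 2-fold between these groups and chromatin by less than that. Their cytoplasmic half-lives went the other way, with medians of 40.5 and 35 minutes against 89 and 80. Across all 9757 genes with such a start the relation was weak (rho = 0.14 for export and 0.11 for chromatin). The first 75 coding bases, from the GENCODE 29 transcripts, are shown for 4 genes that were slow for export and 3 that were held on chromatin, picked as examples after their codon counts were seen, with codons that have T in the middle in capitals, the start codon left in lower case. PRG2 lies on chromosome 11, SCG3 on chromosome 15, PSAP, a lysosomal sphingolipid activator precursor with export half-lives of 490 and 650 minutes, on chromosome 10, and CD63, a lysosomal tetraspanin with 600 and 590, on chromosome 12.
PRG2: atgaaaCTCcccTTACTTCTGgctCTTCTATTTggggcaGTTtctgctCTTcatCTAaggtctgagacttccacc
SCG3: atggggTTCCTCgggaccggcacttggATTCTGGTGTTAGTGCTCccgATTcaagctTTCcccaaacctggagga
PSAP: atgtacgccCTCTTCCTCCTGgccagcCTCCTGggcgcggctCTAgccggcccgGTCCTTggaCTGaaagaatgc
CD63: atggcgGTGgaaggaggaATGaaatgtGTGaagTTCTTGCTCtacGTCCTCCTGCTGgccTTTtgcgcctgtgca
WDR55: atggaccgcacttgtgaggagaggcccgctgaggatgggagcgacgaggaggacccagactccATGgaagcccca
CENPT: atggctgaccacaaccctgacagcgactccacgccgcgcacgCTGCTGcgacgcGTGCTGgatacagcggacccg
PGGHG: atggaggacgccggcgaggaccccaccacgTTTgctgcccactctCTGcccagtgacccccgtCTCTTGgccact
The 4 slow genes carry 10 to 12 such codons among codons 2 to 26, and WDR55, CENPT and PGGHG carry 1, 4 and 5, where codon 26 is counted but not shown. Runs of them stand together in the first 4. The contrast does not hold gene by gene. Among other genes held on chromatin, NABP1 has 12 such codons, SREK1 and TAF1C 9, POLR2J3 8 and PHB2 7. Of the 4 slow genes, PRG2 and CD63 were not called for export, and all 4 had longer chromatin half-lives than WDR55 and CENPT.

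**Figure D4:**
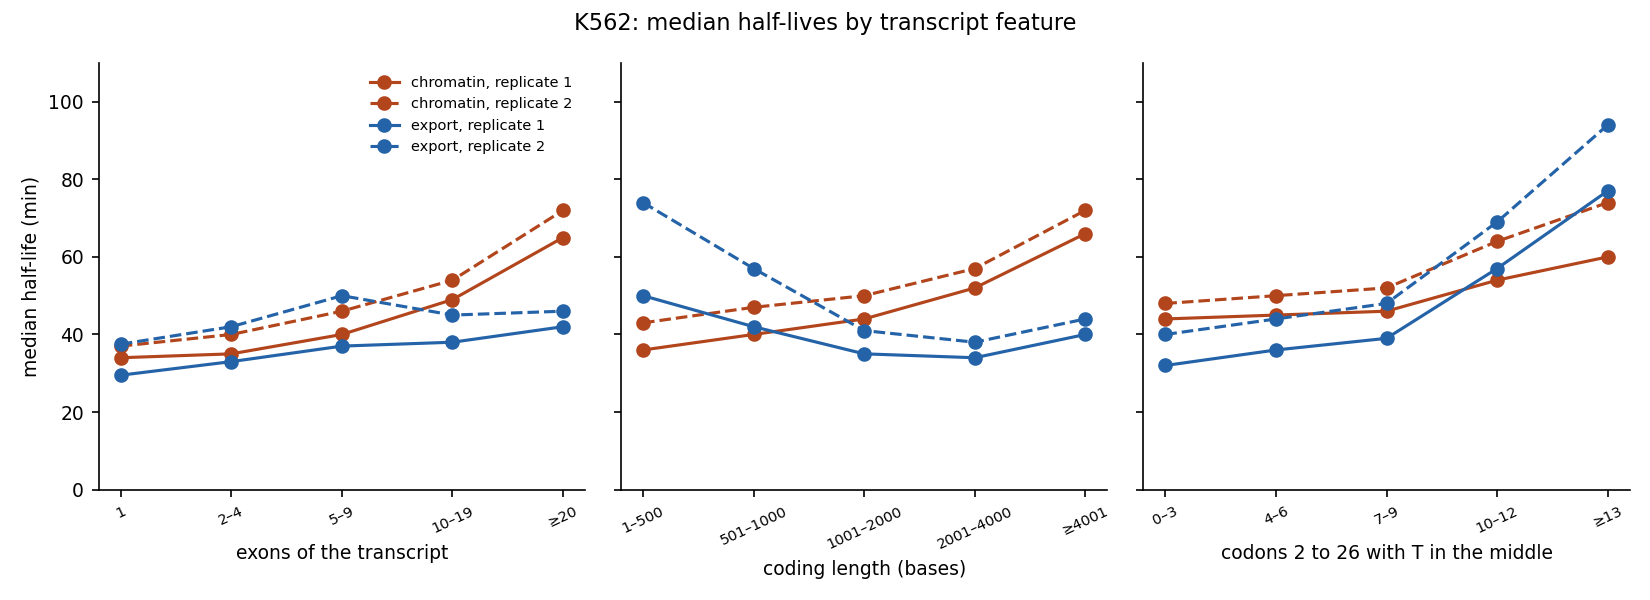
Median half-lives (minutes) on chromatin (orange) and for export (blue) in replicates 1 (solid) and 2 (dashed) by number of exons, coding length and number of codons with T in the middle among codons 2 to 26, for K562 genes. Chromatin medians climb with exon number and coding length, and export medians are highest for coding sequences of at most 500 bases and for 13 or more such codons.

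The other half-lives of the tables, which the rule did not use, differed between the called groups. Genes called for export had median whole-cell half-lives of 520 and 460 minutes, uncalled genes 230 and 220, and genes called for chromatin 120 in both tables. The whole-cell time contains the nuclear steps. The cytoplasmic half-life, which does not, had medians of 85 and 68, 86 and 73, and 93 and 91 minutes, shortest for genes called for export in both replicates and closer together than the whole-cell medians. Loading onto polysomes was quicker for genes called for export, with medians of 3.6 and 7.4 minutes, than for uncalled genes (6.5 and 12) or genes called for chromatin (9.2 and 18). The replicates differed from each other by about 2-fold in this last value.

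The authors' call of nuclear degradation was carried by 8.84% of the genes called for chromatin (228 of 2578 assessed), 1.65% of the uncalled and 2.48% of those called for export. The 356 genes with the call had median half-lives of 36.5 and 40.5 minutes on chromatin and 6.8 in both tables for export, and their median log2 ratio was 2.27. Per the file headers, the export half-life used here applies to genes without the call. Leaving them out left 2385 and 1318 genes called. In the model with nuclear degradation, 24 of the 28 genes with the extreme ratios had an export half-life in both tables. With the chromatin half-life kept as before, the direction of the ratio was the same for each. That model's own chromatin release half-lives were not used in these ratios. For XAGE1A in replicate 2 the release half-life was 5800 minutes against 1300 for export, the opposite direction.

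In NIH-3T3 cells 8930 of 12182 genes met the same rule, and 6639 genes paired by symbol met it in both lines. The mouse cells had the higher ratios, with a median log2 ratio of 0.92 over these genes where K562 cells had 0.00. By limma on the log2 ratios of 2 tables against 2, fitted over 9138 paired genes, 112 of the 6639 were higher in K562 and 367 lower, against 1.92% and 5.21% of all pairs. The count rests on single tables. All pairs together gave 651 calls, of which the number depended on each replicate: 94 were made without K562 replicate 1, 43 without K562 replicate 2, 3285 were made without NIH-3T3 replicate 1 and 0 without NIH-3T3 replicate 2, where 2809 genes had an unadjusted p under 0.05. With each table centred on its own median, 1032 pairs were higher and 635 lower in K562, where the values as deposited gave 175 and 476. Species, cell type and any difference between the experiments cannot be told apart.

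Of the 5 largest differences with K562 lower, 4 lay mostly in export. AHNAK, a giant scaffold, had 230 and 180 minutes on chromatin and 290 and 490 for export in K562, and 310 and 440 against 15 and 9.6 in NIH-3T3 (difference in the log2 ratio -5.83, SE 0.81, limma adjusted p = 0.00449). PRPF8, the central protein of the spliceosome, had 120 minutes in both tables against 190 and 260 in K562, and 310 and 410 against 15 and 11 in the mouse cells. EIF4G1, the scaffold of translation initiation, had 160 and 150 against 200 and 240, and 420 and 690 against 18 and 13. HUWE1, a giant ubiquitin ligase, had 100 and 93 against 130 and 170, and 390 and 560 against 19 and 12. For these 4 genes the NIH-3T3 export values lay between 9.6 and 19 minutes and the K562 values between 130 and 490. SPON2, a secreted matrix protein, ranked beside them, but its K562 chromatin half-life was 26 minutes in replicate 1 and 1.1 in replicate 2, where the mode lies outside its own interval of 17 to 68 minutes, and its limma adjusted p was 0.0585 with centred tables. In the mouse cells the chromatin half-life exceeded the nuclear one for AHNAK, SPON2, PRPF8 and EIF4G1.

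In the other direction, WDR55 had export half-lives of 3.6 and 0.61 minutes in K562 and 50 and 58 in NIH-3T3, with chromatin half-lives of 34 and 39 and of 24 and 38. ADAT2 had 110 and 130 minutes on chromatin and 4.4 and 7.3 for export in K562, and 26 and 37 against 55 and 49 in the mouse cells. HEMK1, a methyltransferase that modifies mitochondrial release factors, had export half-lives of 2.9 in both K562 tables and 29 and 51 in NIH-3T3. FAAP20, a Fanconi anaemia pathway protein, had 4.0 and 3.7 against 110 and 72, and BOLA3, an iron-sulfur cluster assembly factor, 4.0 and 2.8 against 52 and 80. All 5 were called with and without centring. For ADAT2 and HEMK1 the K562 chromatin half-life exceeded the nuclear one in both replicates.

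The lists differed between the lines to different degrees. Of 32 giant scaffolds that met the rule in both lines, 19 had a lower ratio in K562 and 0 a higher one (21 and 0 with centring), with median log2 ratios of 0.17 in K562 and 3.75 in NIH-3T3. Their chromatin half-lives were 135 minutes in both K562 tables and 255 and 375 in the mouse tables, and their export half-lives 115 and 140 against 24 and 12.5. For 11 of the 32 the mouse chromatin half-life exceeded the nuclear one; its part in the difference was not tested. Of 12 glycolytic genes 7 were lower in K562, and of 32 chaperones 13, with K562 medians of -1.06 and -1.27 and mouse medians of 2.30 and 1.26. Small- and large-subunit ribosomal proteins had medians below 0 in both lines, at -1.57 and -1.42 in K562 and -0.78 and -0.46 in NIH-3T3, with 1 of 21 and 0 of 39 called as lower in K562. Immediate early genes were above 0 in both, at 1.62 and 1.21.

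**Figure D5:**
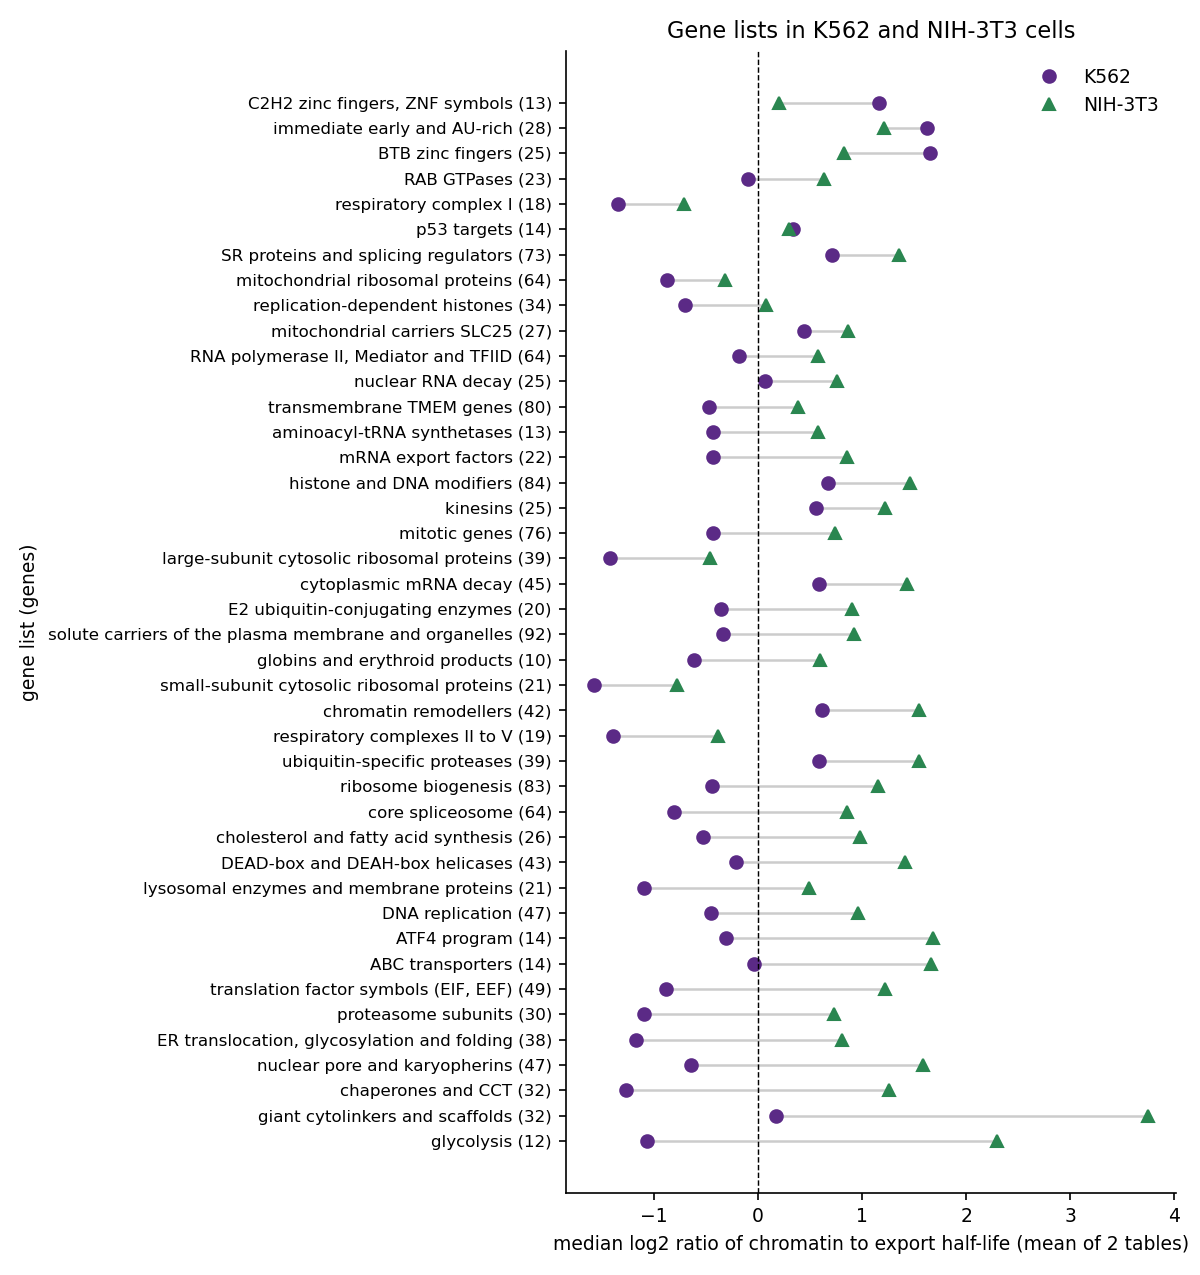
Median log2 ratio of chromatin to export half-life in K562 (circles) and NIH-3T3 cells (triangles) for gene lists with 10 or more genes that met the rule in both lines, with the number of genes in parentheses. Most triangles lie to the right of their circles, farthest for giant scaffolds and glycolysis, and the exceptions are zinc-finger genes, immediate early genes and p53 targets.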

How the data were processed

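Per the labels, RNA was extracted with Trizol LS, treated by TimeLapse chemistry, which recodes 4-thiouridine so that new RNA carries T-to-C mismatches, and sequenced with a stranded total RNA kit. The submitters' processing notes name cutadapt 2.5, STAR 2.7.0a and the hg38 and mm10 builds. The authors deposited half-lives in minutes, per the file headers as posterior mode, mean and 95% credible interval of a Bayesian fit of each time course; its settings are not given in the sources used here. Values carry 2 significant digits, and read depth is unknown, so the intervals are the measure of precision and cover 1 time course.

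Log2 posterior modes were compared with limma 3.58.1 (R 4.3.3), 2 chromatin against 2 export values, unblocked, two-sided, with Benjamini-Hochberg adjustment over 12220 genes; simulated data were used to test the fit. Both values of a table share libraries and are not independent. K562 and NIH-3T3 genes were paired by symbol ignoring case. Transcript features came from GENCODE 29 (GRCh38), using 1 coding transcript per gene; 9962 of 9999 genes matched by identifier. Genes named are those with the 14 largest and 14 smallest ratios, called, with intervals apart in both tables and modes inside their intervals, the 5 slowest, 5 fastest and 5 nearest equality, extremes of each of 47 lists and of the 6 lowest and 6 highest symbol families, and the 5 largest called differences each way between lines. Members, lists and rules were chosen with earlier results of these data known. Python 3.11.15, pandas 2.3.3 and numpy 2.4.6 were used.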

Additional observations from a re-analysis of the deposited data

Results flagged for a closer look

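The ratio of chromatin to export half-life differed between K562 and NIH-3T3 cells, by the limma test of the difference itself, most strongly in 10 genes. The log2 difference, K562 minus NIH-3T3, was -5.83 for AHNAK, -5.81 for SPON2, -5.68 for PRPF8, -5.64 for EIF4G1 and -5.58 for HUWE1. It was 5.45 for WDR55, 5.14 for ADAT2, 4.67 for HEMK1, 4.45 for FAAP20 and 4.45 for BOLA3. For SPON2 the second K562 chromatin mode, 1.1 minutes, lies outside its interval of 17 to 68 minutes, and for WDR55 the K562 export half-lives were 3.6 and 0.61 minutes.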

How the results depend on the processing

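With the replicate block, 719 members and 740 of all genes were called longer for export, against 1349 and 1389 without it, and 1859 members and 2137 genes longer on chromatin. The deviations of same-numbered chromatin and export values had a correlation of -0.12 over all genes and -0.22 over members; with the numbers crossed the block gave 2626 and 1116 members. Leaving out 1 value at a time gave 0 to 1846 members and 0 to 2114 genes for chromatin, and 0 to 732 and 0 to 771 for export, with 0 in both directions whenever a chromatin value was left out; 3 values leave 1 residual degree of freedom per gene, and the lone value is assumed to vary like the pair. The crossed numbers, centred tables and second export estimate were added after the data were seen; the last gave 1691 and 124 members and 1986 and 128 genes. Intervals of at most 2-fold left 377 members for chromatin and 1278 for export. Short export half-lives often had wider intervals (at widest 3.08-fold for SREK1, against 1.12-fold for CCT5), so this limit removed mostly chromatin calls. Half-lives of 15 to 120 minutes kept 6179 members, with 1016 (16.4%) called for chromatin and 430 (6.96%) for export. Both settings keep fewer genes. Posterior means, a mean-variance trend, no width limit and omission of genes with the degradation call kept every count within 1.5-fold. Between lines, 651 calls became 343 with posterior means, 1667 with centred tables and 0 to 3285 without 1 table; the cause was not tested. Of the 28 genes with extreme ratios, none changed direction in these settings. With the export half-life of the model with nuclear degradation, and the chromatin half-life kept, 15 of 24 moved by more than the spread between tables. Unknown depth and half-lives outside the labelling times limit what the shortest and longest values can show.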

Other observations

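Gene lists not described above held genes at both steps. Among all 12220 genes, 24.8% were called longer on chromatin and 11.4% longer for export by limma. In the ATF4 program of amino acid stress, 4 of 18 genes (22.2%) were called for chromatin and 4 (22.2%) for export. With the block these counts were 3 and 1. ATF4, the transcription factor itself, had 16 and 14 minutes on chromatin and 1.5 and 2.4 for export, whereas PSAT1, an enzyme of serine synthesis, had 81 and 74 minutes against 220 and 270. Of 35 mitochondrial carriers, 11 (31.4%) were called for chromatin and 4 (11.4%) for export, the export share being that of all genes. SLC25A16 had 150 and 190 minutes on chromatin and 24 and 13 for export, and SLC25A5, an ADP/ATP carrier, had 86 and 89 against 240 and 310. DNA replication genes ranged from POLE, a leading-strand polymerase, at 150 and 140 minutes against 26 and 38, to RRM1, the large subunit of ribonucleotide reductase, at 86 and 93 against 320 and 300.

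The histone gene H3C14 was listed at 0.27 minutes on chromatin in both tables, outside its own intervals of 7.3 to 14 and 8.6 to 18 minutes, with 5.2 and 5.4 minutes for export. By limma it was called longer for export, while its intervals lay apart with chromatin longer, so the mode and the interval give opposite directions. A chromatin mode lay outside its interval for 9 genes in replicate 1 and 10 in replicate 2, and no export mode did.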
